A study of Homo sapiens with 8 samples.

Results

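The tumor necrosis factor (TNF) superfamily consists of ligands, mostly trimeric proteins at the cell surface, and of the receptors that bind them. The genes analyzed here are the rows of the count table whose symbol starts with TNFSF or TNFRSF followed by a number, together with TNF, LTA, LTB, FASLG, CD40, CD40LG, CD70 and CD27. This rule gave 40 of the 35238 gene symbols in the table, 17 ligands and 23 receptors, and 5 of the receptors carry a death domain. Family members with other symbols, such as FAS and NGFR, were kept apart and are given after the members.

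The study asked how inhibitors of histone deacetylases (HDACs) and of BET bromodomain proteins change transcription in uveal melanoma (UM). The cells were MP38, an established human UM line with a BAP1 mutation, grown in plastic wells without immune cells or stroma, so every value comes from 1 cell line. Control wells received 0.1% DMSO for 24 h, and the other wells received 40 nM romidepsin (a class I HDAC inhibitor), 40 nM quisinostat (a pan-HDAC inhibitor) or 1200 nM mivebresib (a BET inhibitor) for 24 h in medium with the same final DMSO content. Each of the 4 groups had 2 libraries, and p-values here measure only the spread between such wells.

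Receptors of this family act by recruiting adaptors. A death receptor has a cytoplasmic death domain that can bring in FADD or TRADD and start a caspase cascade, whereas most other receptors bind TRAF proteins and activate NF-κB and MAP kinases. Decoy receptors bind a ligand without passing on a death signal, so the balance of ligand, signaling receptor and decoy sets how a cell can respond. In melanocytic tumors TNF signaling is best known for inflammation and for exchange with T cells through co-stimulatory pairs such as CD70 with CD27 and TNFSF9 (4-1BBL) with TNFRSF9 (4-1BB).

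Depth was even, with total counts of 28483235 to 29359024 per library. The control libraries differed from each other more than the other pairs did. Their chi-square per degree of freedom over genes was 58.1, against 9.52 to 9.79 in the drug pairs. The members were therefore also fitted without each control library, and these fits are given for some of them. Genes outside the members are given only with both control libraries. The summed level of 8 melanocytic markers was 3561 to 5451 CPM (counts scaled to library size) in all libraries, most of it TYRP1. DCT stayed at 0 to 5 counts and S100B at 6 to 14. The 10 leukocyte markers together reached 0.567 to 1.42 CPM, CD3E and CD3D were at 0 in every library, and PTPRC had 1 to 11 counts. The 6 endothelial and fibroblast markers summed to 1.57 to 2.59 CPM in control and mivebresib libraries, 4.48 to 5.77 CPM with romidepsin and 8.98 to 11.3 CPM with quisinostat, most of it COL1A1, and CDH5 was at 0 throughout. Of the 7 tested melanocytic markers 0 rose with any drug (15.2%, 28.0% and 22.2% of all tested genes rose with romidepsin, quisinostat and mivebresib). The number that fell was 1 for romidepsin, 3 for quisinostat and 4 for mivebresib (15.8%, 25.1% and 24.1% of all). MLANA, MITF and SOX10 fell with quisinostat (log2 fold changes -1.05, -1.4 and -0.92) and with mivebresib (-1.33, -1.47 and -1.93). The part of these shifts in the results that follow was not tested.

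The DNA just before the gene start is shown for 4 of the tested members. No fixed rule chose these 4, and others that moved as far, such as TNFRSF25 and TNFSF4, are not shown. For CD70, TNFRSF10C and TNFRSF12A no such sequence was available. The printed stretches lie within the 250 bases before the RefSeq start (GRCh38.p14), are written in the direction of transcription, and leave out bases that an exon of GENCODE 29 covers. Capitals mark matches on either strand to motifs searched by their letters. The GC box was spelled GGGCGG, the motif of AP-1 factors was TGANTCA, where N is any base, and the E-box was CACGTG. The letters CCAAT and TATAAA and the NF-κB consensus were searched in the same way. The ligand gene TNFSF15 (chr9:114792531-114792780, minus strand) has an AP-1 match 120 to 114 bases and a CCAAT match 76 to 72 bases before its start, and the window lies inside the longer gene model of GENCODE 29. The receptor gene TNFRSF14 (chr1:2556262-2556365, plus strand) has 3 overlapping NF-κB matches 86 to 75 bases before its start, also inside the longer gene model. The death receptor gene TNFRSF21 (chr6:47309906-47310155, minus strand) has a GC box on the opposite strand and an E-box, and the ligand gene TNFSF9 (chr19:6530776-6530998, plus strand) has 2 GC boxes. A TATAAA match of TNFSF9 runs across the end of the printed stretch into exon-covered bases that are not printed.
TNFSF15: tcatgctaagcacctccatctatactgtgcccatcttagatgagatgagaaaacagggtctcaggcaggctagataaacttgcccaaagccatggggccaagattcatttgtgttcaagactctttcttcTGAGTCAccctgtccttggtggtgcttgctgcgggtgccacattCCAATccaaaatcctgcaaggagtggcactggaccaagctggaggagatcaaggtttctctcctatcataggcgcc
TNFRSF14: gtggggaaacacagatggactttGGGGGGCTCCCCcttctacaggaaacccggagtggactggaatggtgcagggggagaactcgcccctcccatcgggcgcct
TNFRSF21: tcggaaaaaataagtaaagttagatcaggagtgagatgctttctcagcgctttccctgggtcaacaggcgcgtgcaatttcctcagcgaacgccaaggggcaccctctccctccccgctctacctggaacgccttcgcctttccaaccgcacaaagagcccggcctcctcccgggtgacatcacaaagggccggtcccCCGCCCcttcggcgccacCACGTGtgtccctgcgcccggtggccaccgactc
TNFSF9: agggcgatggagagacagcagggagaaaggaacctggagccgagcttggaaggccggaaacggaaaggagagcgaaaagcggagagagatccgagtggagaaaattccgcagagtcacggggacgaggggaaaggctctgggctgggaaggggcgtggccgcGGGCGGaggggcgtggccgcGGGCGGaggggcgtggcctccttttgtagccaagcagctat

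Promoter windows were given for 26 of the 40 members and for 13 of the 19 that were tested. TNFRSF19 and TNFSF13 had more than 1 window, so these 13 members had 15. A GC box lay in 9 of the 15 windows, against 42.6% of all 35116 promoters, an AP-1 match in 3 (TNFSF15 among them) against 6.6%, an NF-κB match in 4 against 10.0%, a CCAAT box in 2 against 32.0%, a TATAAA match in 1 against 10.7% and an E-box in 1 against 6.3%. These are matches to letters only, and binding was not measured.

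Most ligands of the family were close to silent in MP38. A low-count filter kept 19 members, 5 of the 17 ligands and 14 of the 23 receptors, and left out 21. Of these 21, 14 had at most 3 counts in every library, and the highest count of any was 7. The T cell ligands FASLG and CD40LG had 0 counts in all 8 libraries, which allows up to 0.102 to 0.105 CPM (3 counts of the total, counting error only). TNF itself had 1 count in control replicate 2 and 1 in mivebresib replicate 2, and LTA and LTB had at most 2 counts. TNFSF10 (TRAIL), the ligand of the TRAIL receptors, had 1 and 1 counts in control, 3 and 2 with romidepsin, 7 and 2 with quisinostat, and 3 and 6 with mivebresib. CD40 had 5 and 3 counts with quisinostat and 0 in every other library. TNFSF8, TNFSF11, TNFSF12, TNFSF13B, TNFSF14, TNFSF18, TNFRSF4, TNFRSF8, TNFRSF13B, TNFRSF17 and TNFRSF18 also lay below the filter. Of the 19 tested members, 15 had at least 10 counts in both libraries of every group. TNFRSF25 passed through its romidepsin and quisinostat libraries and TNFRSF13C through its quisinostat libraries, so members of that kind had to differ between groups, and counts over the 19 tested members are not counts over the family.

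Per kilobase of merged exon, the receptor TNFRSF12A (Fn14, which binds TWEAK) was the most abundant member in control cells at 200.3 RPKM. It was followed by TNFRSF14 (32.2 RPKM), TNFRSF1A (29.1 RPKM), the ligand TNFSF9 (18.3 RPKM), TNFRSF10B (16.6 RPKM), TNFRSF21 (12.4 RPKM) and TNFRSF19 (9.04 RPKM). With mivebresib the TNFRSF12A level was 457 RPKM, and the next members were TNFSF9 (37.3 RPKM) and TNFRSF21 (25.9 RPKM). Neighbors in the control order such as TNFRSF14 and TNFRSF1A, or TNFSF9 and TNFRSF10B, cannot be separated with 2 libraries. The ligand of TNFRSF12A, TNFSF12 (TWEAK), had at most 4 counts in any library.

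**Figure D1:**
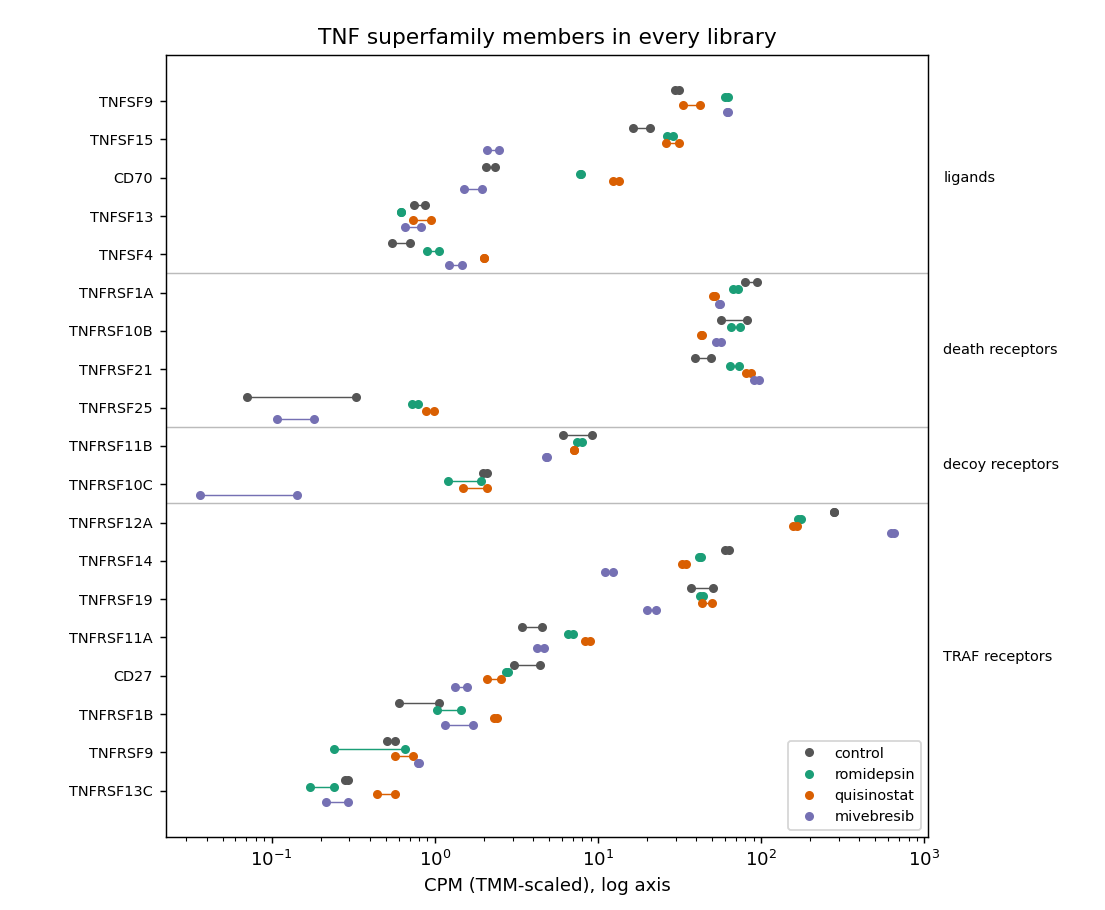
Level of each of the 19 tested members in CPM (log axis), 1 point per library and a line joining both libraries of a group. TNFRSF10C and TNFSF15 lie far to the left with mivebresib, CD70 lies to the right with both HDAC inhibitors, and TNFRSF12A separates into 3 levels.

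Changes against control were common in both directions. With romidepsin 6 of the 19 tested members rose and 3 fell (edgeR's quasi-likelihood test, adjusted p below 0.05), against 15.2% and 15.8% of all 15085 tested genes. With quisinostat 7 rose and 5 fell (28.0% and 25.1% of all genes), and with mivebresib 4 rose and 7 fell (22.2% and 24.1%). Over the 15 members with at least 10 counts in every library, a restriction chosen after seeing the data, 5 rose and 3 fell with romidepsin, 6 and 5 with quisinostat, and 4 and 6 with mivebresib. With the added limit of a log2 fold change beyond 1.5, 2 members rose and 0 fell with romidepsin (3.77% and 0.312% of all genes), 3 rose and 0 fell with quisinostat (11.2% and 1.03%), and 0 rose and 3 fell with mivebresib (3.96% and 4.36%). With so few members these shares are a description and not a test. The median log2 fold change of the tested members was 0.0015, 0.27 and -0.33 with romidepsin, quisinostat and mivebresib, and -0.012, -0.0036 and 0.0067 over all tested genes. TNFRSF21 rose with all 3 drugs, TNFRSF1A and TNFRSF14 fell with all 3, TNFRSF12A and TNFSF15 moved in opposite directions with the HDAC inhibitors and mivebresib, 11 members passed with some drugs in 1 direction, and TNFSF13, TNFRSF9 and TNFRSF13C passed with none. In bulk RNA, fewer cells of a type and less RNA per cell cannot be told apart.

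**Figure D2:**
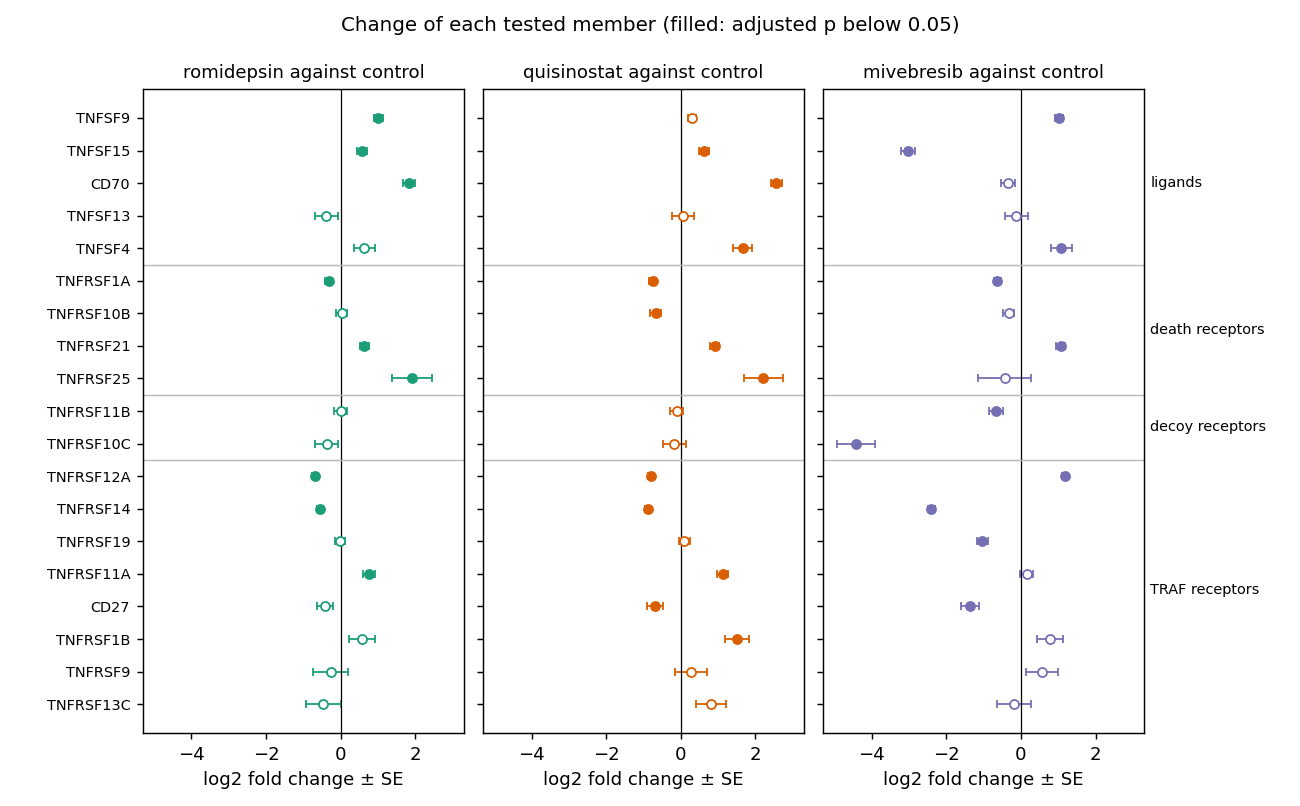
Log2 fold change against control with its SE for the 19 tested members, 1 panel per drug; filled points have an adjusted p below 0.05. Among the ligands CD70 is at 1.83 and 2.56 with the HDAC inhibitors, and TNFRSF10C (-4.42), TNFSF15 (-3.03) and TNFRSF14 (-2.40) are the members furthest down with mivebresib.

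The ligands that MP38 expressed were mainly those known for T cell co-stimulation. CD70, which binds CD27 on lymphocytes, had 66 and 56 counts in control, 229 and 225 with romidepsin, 425 and 390 with quisinostat, and 53 and 42 with mivebresib. Both HDAC inhibitor groups lay above every control and mivebresib library, and quisinostat lay above romidepsin. CD70 rose 3.56-fold with romidepsin (log2 fold change 1.83 ± 0.15 SE, edgeR adjusted p = 0.000133) and 5.89-fold with quisinostat (2.56 ± 0.15 SE, edgeR adjusted p = 4.95e-06). With mivebresib its change was -0.35 (95% interval -0.76 to 0.07), which did not pass.

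TNFSF9, the ligand of 4-1BB, had 835 and 860 counts in control, 1835 and 1737 with romidepsin, 1048 and 1324 with quisinostat, and 1682 and 1747 with mivebresib. Romidepsin and mivebresib libraries were all above the quisinostat libraries, which were above control. It rose 2.01-fold with romidepsin (1.01 ± 0.11 SE, edgeR adjusted p = 0.000494) and 2.04-fold with mivebresib (1.03 ± 0.11 SE, edgeR adjusted p = 0.000163). With quisinostat the change was 0.30 (95% interval 0.04 to 0.57) at an edgeR adjusted p of 0.0508, and over the 16 alternatives that refitted the counts at the same threshold that p ranged from 0.00587 (library size alone) to 0.459 (without quisinostat replicate 2), with 5 of them past the threshold.

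TNFSF15 (TL1A), the ligand of TNFRSF25 whose promoter window is printed above, had 465 and 570 counts in control, 842 and 764 with romidepsin, 823 and 979 with quisinostat, and 57 and 69 with mivebresib. No group of HDAC inhibitor libraries overlapped control, and mivebresib lay far below all others. It fell 8.15-fold with mivebresib (log2 fold change -3.03 ± 0.18 SE, edgeR adjusted p = 7.12e-06). It rose 1.48-fold with romidepsin (0.57 ± 0.14 SE, edgeR adjusted p = 0.0163) and 1.54-fold with quisinostat (0.62 ± 0.14 SE, edgeR adjusted p = 0.00563). Over the alternatives these p-values ranged from 0.00142 to 0.113 (highest without romidepsin replicate 1) and from 0.000501 to 0.0578 (highest without quisinostat replicate 2).

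TNFSF4 (OX40L), another co-stimulatory ligand, was scarce, with 20 and 15 counts in control, 31 and 26 with romidepsin, 63 and 63 with quisinostat, and 40 and 34 with mivebresib. All drug libraries were above control. It rose 3.17-fold with quisinostat (1.66 ± 0.26 SE, edgeR adjusted p = 0.000816) and 2.13-fold with mivebresib (1.09 ± 0.27 SE, edgeR adjusted p = 0.0112, range over the alternatives 0.00721 to 0.0611, highest without mivebresib replicate 1, and 0.0554 without control replicate 2). With romidepsin the change was 0.64 (95% interval -0.01 to 1.28). TNFSF13 (APRIL), a B cell survival ligand, kept between 18 and 30 counts in every library and passed with no drug. As 51.2% of its 31-base words also occur in the readthrough transcript TNFSF12-TNFSF13, which the table lists at 0, its counts depend on how reads were assigned.

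The death receptors did not move as a group. TNFRSF1A (TNFR1), the main receptor for soluble TNF, had 2246 and 2572 counts in control, 2106 and 1950 with romidepsin, 1611 and 1642 with quisinostat, and 1537 and 1538 with mivebresib. Every drug library was below both control libraries. It fell 1.68-fold with quisinostat (-0.75 ± 0.095 SE, edgeR adjusted p = 0.000269) and 1.56-fold with mivebresib (-0.64 ± 0.095 SE, edgeR adjusted p = 0.00079). The fall with romidepsin was smaller, 1.24-fold (-0.31 ± 0.094 SE, edgeR adjusted p = 0.0352). It passed in 6 of 16 alternatives, where its adjusted p ranged from 0.00479 without control replicate 1 to 0.185 without romidepsin replicate 2.

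TNFRSF21 (DR6), a death-domain receptor best known in neurons and in T cell regulation, had 1111 and 1357 counts in control, 2140 and 1869 with romidepsin, 2554 and 2714 with quisinostat, and 2633 and 2509 with mivebresib. Both control libraries were the lowest of the 8. It rose 1.55-fold with romidepsin (0.63 ± 0.12 SE, edgeR adjusted p = 0.00548), 1.88-fold with quisinostat (0.91 ± 0.12 SE, edgeR adjusted p = 0.000342) and 2.10-fold with mivebresib (1.07 ± 0.12 SE, edgeR adjusted p = 0.000182). Across the alternatives the romidepsin p ranged from 4.88e-05 to 0.0544, the highest without romidepsin replicate 1. Its promoter window, printed above, carries a GC box and an E-box.

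TNFRSF10B (DR5), a TRAIL receptor that signals death, had 1592 and 2229 counts in control, 2174 and 1896 with romidepsin, 1353 and 1359 with quisinostat, and 1442 and 1580 with mivebresib. The romidepsin libraries lay between the control libraries, the quisinostat libraries lay below all others, and the mivebresib libraries lay near the lower control library. It fell 1.60-fold with quisinostat (-0.68 ± 0.16 SE, edgeR adjusted p = 0.00649). With romidepsin the change was 0.02 (95% interval -0.33 to 0.38) and with mivebresib -0.33 (95% interval -0.69 to 0.03). Single control libraries changed both calls. Without control replicate 1 the mivebresib change was -0.57 (edgeR adjusted p = 0.000716), and without control replicate 2 the romidepsin change was 0.31 (edgeR adjusted p = 0.0277). TNFRSF10A (DR4), the other TRAIL death receptor, had at most 1 count in any library and was not tested.

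TNFRSF25 (DR3), the receptor for TNFSF15, had 2 and 9 counts in control, 21 and 23 with romidepsin, 28 and 31 with quisinostat, and 5 and 3 with mivebresib. The HDAC inhibitor libraries were all above control, and the mivebresib counts lay within the control range. Its summed count was 3.82 times control with romidepsin (95% counting interval 1.94 to 8.21) and 4.73 times with quisinostat (2.46 to 9.99) after scaling. The log2 fold changes were 1.91 ± 0.53 SE with romidepsin (edgeR adjusted p = 0.0272) and 2.22 ± 0.51 SE with quisinostat (edgeR adjusted p = 0.00651). As it passed the filter through these libraries, the fit without a filter is given too, with edgeR adjusted p = 0.0313 and 0.00683. Both sizes turned on the control libraries, with log2 fold changes of 1.22 and 1.5 without control replicate 1 and of 3.34 and 3.64 without control replicate 2. The romidepsin call was lost in some alternatives, with adjusted p-values from 0.00421 without control replicate 2 to 0.112 without control replicate 1. Of its 31-base words 14.7% also occur in ESPN. PLEKHG5 overlaps 104 bases (6.3%) of its exons on the same strand, had 87 to 287 counts and changed by 0.72, 1.01 and -0.45 on the log2 scale with romidepsin, quisinostat and mivebresib, and the part of shared reads in the TNFRSF25 values was not tested.

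Set against the rest of the family, the 4 tested death receptors had a median log2 fold change of 0.33, 0.12 and -0.38 with romidepsin, quisinostat and mivebresib, and the 15 other tested members had -0.019, 0.27 and -0.18. The differences were 0.35, -0.15 and -0.21, and no test was made of them. From the log2 CPM of each of the 2 drug libraries against the mean of the controls, the SD of the difference was 0.11, 0.16 and 0.031. These SDs come from another measure than the fitted differences and leave out the spread of the controls. For mivebresib the single-library values were 0.035 and -0.0092, both far from -0.21. Without control replicate 1 the mivebresib difference was -0.43, and without control replicate 2 it was 0.63. Leaving out genes under a mean of 1 CPM removed TNFRSF25 from the death receptors and TNFRSF9, TNFRSF13C and TNFSF13 from the other members. The differences then became -0.26, -0.88 and 0.17 with romidepsin, quisinostat and mivebresib, so the romidepsin and mivebresib values changed sign. Without control replicate 2 the quisinostat difference was 0.0088, also of the other sign, whereas the romidepsin difference was 0.32 and 0.34 without control replicate 1 and 2.

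**Figure D3:**
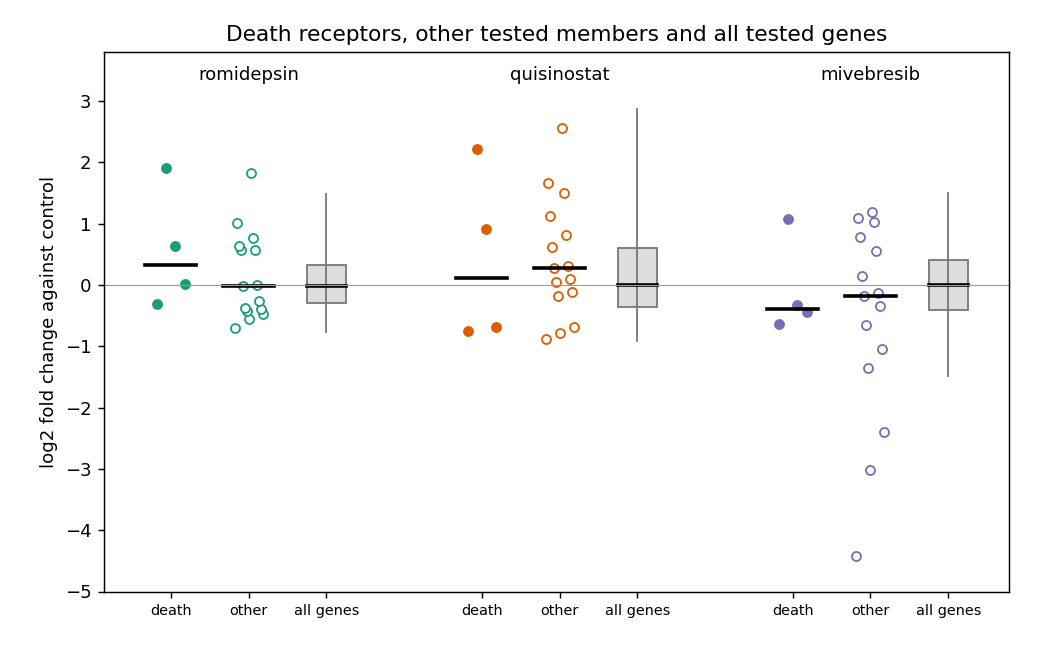
Log2 fold change against control of the 4 tested death receptors (filled points), the 15 other tested members (open points) and all 15085 tested genes (box from the 25th to the 75th percentile, line from the 5th to the 95th), with a black bar at each median. The death receptors span both sides of 0 with every drug and lie within the range of the other members, except TNFRSF25 with romidepsin (1.91), which lies just above CD70 (1.83).

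Among the decoy receptors, TNFRSF10C (DcR1), a TRAIL receptor without a death domain, had 56 and 57 counts in control, 35 and 56 with romidepsin, 66 and 47 with quisinostat, and 1 and 4 with mivebresib. The mivebresib libraries lay far below all others. Summed over libraries and scaled, control was 22.4 times mivebresib (95% counting interval 9.33 to 70.4), and the fitted log2 fold change was -4.42 ± 0.52 SE (edgeR adjusted p = 0.000215). The size of the fall turned on single libraries, with -3.79 without mivebresib replicate 1 and -5.64 without mivebresib replicate 2. With romidepsin and quisinostat the changes were -0.38 (95% interval -1.10 to 0.34) and -0.18 (95% interval -0.88 to 0.52). Of its 31-base words 42.6% occur in other transcripts and 28.8% in AC107959.4, and TNFRSF10C lies in a cluster of similar TRAIL receptor genes, so reads could be split between them.

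TNFRSF11B (osteoprotegerin), a secreted decoy for RANKL and TRAIL, had 173 and 253 counts in control, 231 and 216 with romidepsin, 224 and 224 with quisinostat, and 134 and 134 with mivebresib. The HDAC inhibitor libraries lay between the controls and the mivebresib libraries lay below them. It fell 1.58-fold with mivebresib (-0.66 ± 0.19 SE, edgeR adjusted p = 0.0198). That p ranged from 0.000406 without control replicate 1 to 0.0948 without control replicate 2, and it was also above the threshold without either mivebresib replicate (0.0782 and 0.092). TNFRSF10D had 4 and 4 counts in control, 1 and 0 with romidepsin, 2 and 3 with quisinostat, and 2 and 5 with mivebresib. TNFRSF6B (DcR3) had 0 and 3 counts in control, 2 and 0 with romidepsin, and 0 in the other 4 libraries. The readthrough transcript RTEL1-TNFRSF6B had 41 to 85 counts, so TNFRSF6B reads may have been assigned to it.

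Among the TRAF-binding receptors, TNFRSF12A (Fn14) moved in opposite directions with the HDAC inhibitors and mivebresib. It had 7863 and 7653 counts in control, 5109 and 4872 with romidepsin, 5221 and 4951 with quisinostat, and 17700 and 17408 with mivebresib. The 3 levels did not overlap, with both HDAC inhibitors below control and mivebresib above it. It rose 2.28-fold with mivebresib (1.19 ± 0.080 SE, edgeR adjusted p = 1.37e-05), and it fell 1.63-fold with romidepsin (-0.70 ± 0.080 SE, edgeR adjusted p = 0.00052) and 1.73-fold with quisinostat (-0.79 ± 0.080 SE, edgeR adjusted p = 8.14e-05).

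TNFRSF14 (HVEM), a receptor for LIGHT that also binds the inhibitory receptor BTLA, had 1703 and 1745 counts in control, 1213 and 1248 with romidepsin, 1031 and 1080 with quisinostat, and 302 and 346 with mivebresib. The 4 groups formed 4 separate steps. It fell 1.47-fold with romidepsin (-0.55 ± 0.084 SE, edgeR adjusted p = 0.00203), 1.85-fold with quisinostat (-0.89 ± 0.085 SE, edgeR adjusted p = 5.9e-05) and 5.28-fold with mivebresib (-2.40 ± 0.092 SE, edgeR adjusted p = 1.52e-06). TNFRSF14-AS1 shares 26.3% of its 31-base words, and whether the counting used strand is not given in the sources used here. Its printed promoter window is the one with the NF-κB matches.

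CD27, the receptor for CD70, had 124 and 84 counts in control, 80 and 81 with romidepsin, 80 and 66 with quisinostat, and 43 and 37 with mivebresib. The ligand CD70 and its receptor moved in opposite directions with quisinostat. CD27 fell 2.57-fold with mivebresib (-1.36 ± 0.23 SE, edgeR adjusted p = 0.00175), where both libraries were below all others. It fell 1.61-fold with quisinostat (-0.69 ± 0.22 SE, edgeR adjusted p = 0.0266), with adjusted p-values from 0.00448 without control replicate 2 to 0.178 without control replicate 1. With romidepsin the change was -0.43 (95% interval -0.92 to 0.06), and without control replicate 2 it was -0.67 (edgeR adjusted p = 0.0314). Of its 31-base words 32.2% occur in CD27-AS1.

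TNFRSF11A (RANK), known for osteoclast formation, had 97 and 124 counts in control, 204 and 190 with romidepsin, 264 and 282 with quisinostat, and 115 and 129 with mivebresib. Both HDAC inhibitor groups lay above control, and mivebresib overlapped it. It rose 2.18-fold with quisinostat (1.12 ± 0.15 SE, edgeR adjusted p = 0.000425) and 1.70-fold with romidepsin (0.77 ± 0.16 SE, edgeR adjusted p = 0.00759, range 0.00141 to 0.055, highest without romidepsin replicate 1). With mivebresib the change was 0.15 (95% interval -0.22 to 0.53). Its ligand TNFSF11 (RANKL) had at most 3 counts in any library.

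TNFRSF1B (TNFR2), the second TNF receptor, had 17 and 29 counts in control, 30 and 42 with romidepsin, 76 and 72 with quisinostat, and 47 and 32 with mivebresib. The quisinostat libraries were the highest, and the lower romidepsin library was level with a control. Only the quisinostat change passed, a 2.83-fold rise (1.499 ± 0.33 SE, edgeR adjusted p = 0.0048). With romidepsin it was 0.58 (95% interval -0.23 to 1.38) and with mivebresib 0.79 (95% interval -0.01 to 1.58), the latter past the threshold without control replicate 2 (1.24, edgeR adjusted p = 0.0287).

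TNFRSF19 (TROY), an orphan receptor known from the nervous system and skin, had 1042 and 1383 counts in control, 1280 and 1228 with romidepsin, 1377 and 1566 with quisinostat, and 543 and 632 with mivebresib. The mivebresib libraries were below all others, and the rest overlapped or adjoined. It fell 2.05-fold with mivebresib (-1.04 ± 0.15 SE, edgeR adjusted p = 0.000714). Without control replicate 2 the quisinostat change, 0.10 with both controls, was 0.33 (edgeR adjusted p = 0.0246). TNFRSF9 (4-1BB), the receptor for TNFSF9, had 7 to 23 counts in all libraries, and TNFRSF13C (BAFF receptor) had 5 to 18 counts, and neither passed against control.

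Since all drug groups share the control, the drugs were also compared with each other in the same model, which tests a difference between drugs itself. Between quisinostat and romidepsin 8 of the 19 tested members differed, 4 higher and 4 lower with quisinostat (35.6% of all genes differed in either direction). Of all 15085 tested genes 3167 were higher and 2200 lower with quisinostat. CD70 was 1.66-fold higher with quisinostat (0.73 ± 0.13 SE, edgeR adjusted p = 0.00337) and TNFSF9 was 1.63-fold lower (-0.71 ± 0.11 SE, edgeR adjusted p = 0.00207), and these were the 2 of the 8 that passed in all 16 alternatives at the same threshold. TNFSF4, TNFRSF1B and TNFRSF13C were also higher with quisinostat, and TNFRSF10B, TNFRSF1A and TNFRSF14 were lower. For TNFSF15 the difference between the HDAC inhibitors was 0.05 (95% interval -0.26 to 0.36), for TNFRSF12A -0.09 (95% interval -0.27 to 0.09) and for TNFRSF25 0.31 (95% interval -0.62 to 1.23). TNFRSF1B differed narrowly, with edgeR adjusted p = 0.0451 and a range of 0.0148 to 0.235 over the alternatives. TNFRSF13C, which passed the filter through its quisinostat libraries, had an adjusted p of 0.0938 in edgeR without a filter, and over the 15 members counted in every group 3 were higher and 4 lower with quisinostat. For the other calls the highest adjusted p over the alternatives was 0.0798 for TNFSF4 (without romidepsin replicate 2), 0.0689 for TNFRSF10B and 0.0709 for TNFRSF1A (both without romidepsin replicate 1) and 0.104 for TNFRSF14 (without quisinostat replicate 1).

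Mivebresib differed from romidepsin in 12 of the 19, 2 higher and 10 lower (48.9% of all genes), and from quisinostat in 11, 2 higher and 9 lower (57.7%). Of all 15085 tested genes 3576 were higher and 3796 lower with mivebresib than with romidepsin. Against quisinostat 3954 were higher and 4756 lower. Of the member calls 6 of 12 and 9 of 11 passed in every alternative at the same threshold that tested the member. TNFRSF25, among the 9, was tested in 15 of the 16 alternatives. TNFRSF12A was 3.71-fold higher with mivebresib than with romidepsin (1.89 ± 0.082 SE, edgeR adjusted p = 2.19e-06) and 3.94-fold higher than with quisinostat (1.98 ± 0.082 SE, edgeR adjusted p = 1.1e-06). TNFSF15 was 12.1-fold and 12.5-fold lower, CD70 4.52-fold and 7.49-fold lower, and TNFRSF14 3.60-fold and 2.85-fold lower. TNFRSF25, TNFRSF10C, TNFRSF11A, TNFRSF11B, TNFRSF19 and CD27 were lower with mivebresib in both comparisons. TNFRSF25 had passed the filter through its HDAC inhibitor libraries. Without a filter its differences were -2.35 from romidepsin and -2.65 from quisinostat (edgeR adjusted p = 0.00875 and 0.00284). Over the 15 members counted in every group, 2 were higher and 8 lower with mivebresib than with romidepsin. Against quisinostat 2 were higher and 7 lower. TNFSF9 did not differ detectably between mivebresib and romidepsin (0.02, 95% interval -0.24 to 0.27) but was 1.65-fold higher than with quisinostat (0.72 ± 0.11 SE, edgeR adjusted p = 0.000689). The calls against romidepsin that were lost had highest adjusted p-values of 0.0776 for CD27 and 0.0664 for TNFRSF25 (both without mivebresib replicate 2), 0.07 for TNFRSF11A (without mivebresib replicate 1), 0.0857 for TNFRSF11B and 0.137 for TNFRSF1A (both without romidepsin replicate 1) and 0.121 for TNFRSF21 (without romidepsin replicate 2). Against quisinostat they were 0.192 for CD27 (without quisinostat replicate 1) and 0.125 for TNFRSF11B (without mivebresib replicate 2).

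**Figure D4:**
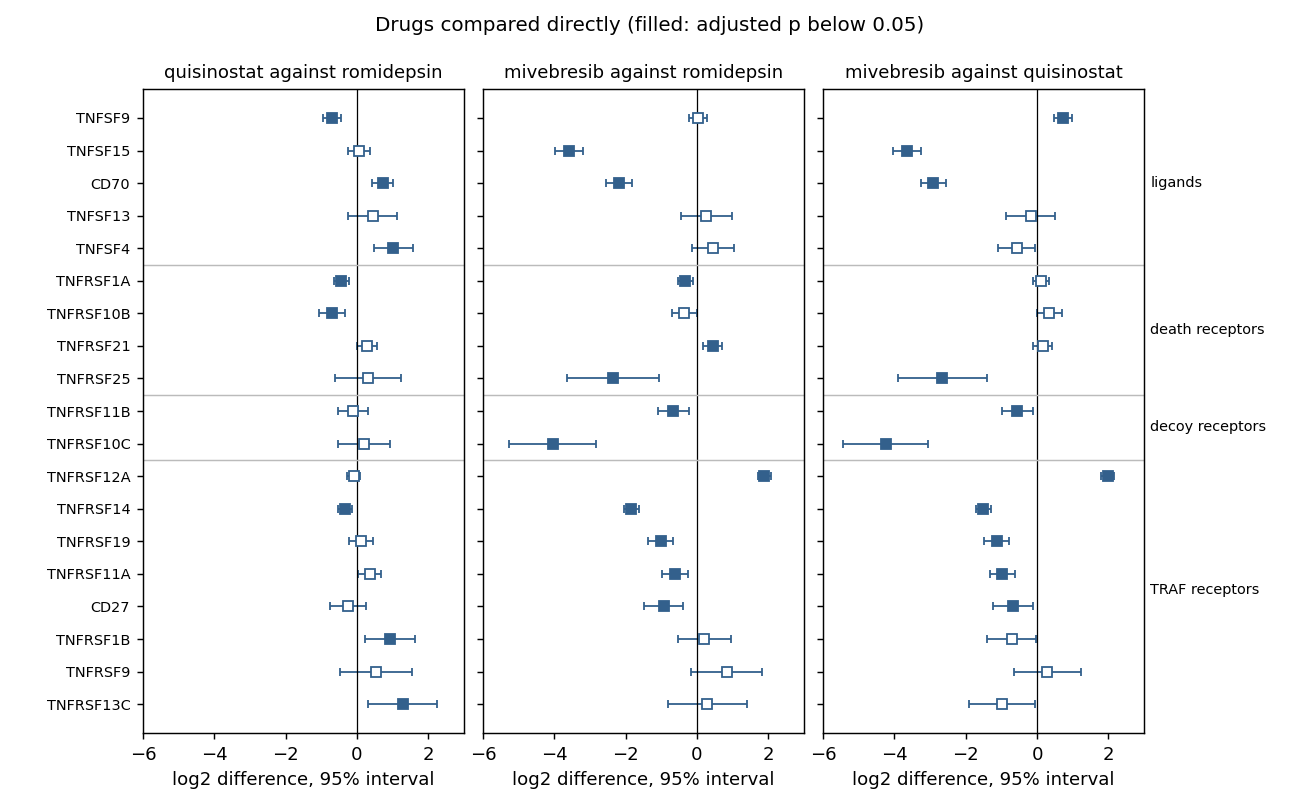
Direct log2 differences between drugs with 95% intervals for the 19 tested members; filled squares have an adjusted p below 0.05. The mivebresib panels spread from -4.24 (TNFRSF10C) to 1.98 (TNFRSF12A), whereas every quisinostat against romidepsin difference lies between -0.71 and 1.28.

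Family members with other symbols moved as well. NGFR (p75NTR), a death-domain receptor that marks neural crest cells, had 46 and 51 counts in control, 189 and 194 with romidepsin, 1007 and 1119 with quisinostat, and 471 and 437 with mivebresib. All drug libraries were above control and the 3 drugs did not overlap. It rose by 1.91 ± 0.14 SE, 4.27 ± 0.13 SE and 3.24 ± 0.13 SE on the log2 scale with romidepsin, quisinostat and mivebresib (edgeR adjusted p = 9.03e-05, 6.49e-07 and 1.6e-06). FAS, the death receptor for FASLG, had 535 and 692 counts in control, 483 and 390 with romidepsin, 336 and 403 with quisinostat, and 202 and 214 with mivebresib, and its changes were -0.56, -0.91 and -1.55 (edgeR adjusted p = 0.0332, 0.00193 and 0.000175).

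The lymphotoxin receptor gene LTBR fell with all 3 drugs (-0.32, -0.99 and -0.58; edgeR adjusted p = 0.0332, 6.36e-05 and 0.00128). The ectodysplasin gene EDA rose with all 3 (1.22, 2.16 and 1.88; edgeR adjusted p = 0.00292, 4.25e-05 and 0.000121). Its receptor EDA2R fell with mivebresib (-1.26, edgeR adjusted p = 7.36e-05), RELT fell with quisinostat (-0.51, edgeR adjusted p = 0.00461), and EDAR had at most 3 counts. Of the 6 tested genes in this group 2 rose and 2 fell with romidepsin (15.2% and 15.8% of all genes). With quisinostat 2 rose and 3 fell (28.0% and 25.1%), and with mivebresib 2 rose and 3 fell (22.2% and 24.1%).

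Downstream of the death receptors, 13 of 15 listed adaptors, caspases and regulators were tested. Of these 1 rose and 5 fell with romidepsin, 1 rose and 6 fell with quisinostat, and 2 rose and 6 fell with mivebresib, with medians of -0.20, -0.045 and -0.21. Over all tested genes 15.2% rose and 15.8% fell with romidepsin, 28.0% and 25.1% with quisinostat, and 22.2% and 24.1% with mivebresib, and these shares are the background of each list that follows. CASP10, an initiator caspase, had 233 and 242 counts in control, 411 and 386 with romidepsin, 689 and 605 with quisinostat, and 97 and 78 with mivebresib. It was the only one to rise with the HDAC inhibitors (0.68 and 1.27, edgeR adjusted p = 0.00466 and 6.64e-05), and it fell with mivebresib (-1.43, edgeR adjusted p = 0.000102). CASP8, the other initiator, fell with mivebresib (-1.12, edgeR adjusted p = 3.28e-05) from 512 and 469 counts to 223 and 226. CRADD, a death-domain adaptor of caspase-2, fell there too (-1.03, edgeR adjusted p = 0.00146).

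FADD, the adaptor that links death receptors to caspases, fell with all 3 drugs (-0.88, -0.74 and -0.38; edgeR adjusted p = 0.00143, 0.00124 and 0.0339). RIPK1, the kinase that sorts TNFR1 signals between survival and death, fell with romidepsin and quisinostat (-0.54 and -0.84, edgeR adjusted p = 0.0012 and 3.93e-05) and rose with mivebresib (0.45, edgeR adjusted p = 0.00138). Among the listed regulators, CFLAR fell with all 3 drugs (-0.48, -0.54 and -0.89, edgeR adjusted p = 0.00669, 0.00184 and 0.000152). XIAP fell with romidepsin and quisinostat (-0.48 and -0.62, edgeR adjusted p = 0.00995 and 0.00135), and TRADD rose with mivebresib (0.71, edgeR adjusted p = 0.0192). Of the necroptosis genes, RIPK3 had 0 counts in all libraries and MLKL at most 5.

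All 18 TRAF and ubiquitin genes were tested. With romidepsin 1 rose and 4 fell, with quisinostat 1 rose and 9 fell, and with mivebresib 2 rose and 4 fell, beside 15.2% and 15.8%, 28.0% and 25.1%, and 22.2% and 24.1% of all genes. BIRC3 (cIAP2), an ubiquitin ligase of the TNF receptor complex, had 348 and 320 counts in control and 667 and 632 with romidepsin, a rise of 0.89 (edgeR adjusted p = 0.000271). With quisinostat it had 300 and 296 counts and fell (-0.34, edgeR adjusted p = 0.0133). The mivebresib change of -0.25 did not pass (edgeR adjusted p = 0.0579). TRAF2 (-0.89), TRAF4 (-0.79) and BIRC2 (-0.69) fell most with quisinostat (edgeR adjusted p = 0.000564, 0.000514 and 0.000217), and TRAF4 (-0.47) and TNIP2 (-0.43) also fell with romidepsin (edgeR adjusted p = 0.0142 and 0.0453). TNFAIP3 (A20), a brake on NF-κB (-1.45), TRAF5 (-1.24) and TRAF2 (-0.59) fell with mivebresib (edgeR adjusted p = 0.000419, 8.18e-05 and 0.00558).

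Of 14 NF-κB subunit and kinase genes, 3 rose and 4 fell with romidepsin, 3 rose and 6 fell with quisinostat, and 3 rose and 4 fell with mivebresib, beside the same shares of all genes (15.2% and 15.8%, 28.0% and 25.1%, 22.2% and 24.1%). NFKB1, the p105 and p50 subunit, fell with quisinostat (-0.71, edgeR adjusted p = 0.000105) and mivebresib (-0.75, edgeR adjusted p = 0.0001). RELB fell with both HDAC inhibitors (-0.69 and -0.59, edgeR adjusted p = 0.0103 and 0.0107), as did the TAK1 partner TAB1 (-0.58 and -0.62, edgeR adjusted p = 0.00305 and 0.000872). MAP3K14 (NIK), the kinase of the non-canonical branch, rose with all 3 drugs (0.51, 0.43 and 0.81; edgeR adjusted p = 0.00344, 0.00363 and 0.000142), and NFKBIB fell with mivebresib (-0.83, edgeR adjusted p = 0.000372).

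Of 25 NF-κB target genes 22 were tested, and 8 rose and 1 fell with romidepsin, 5 rose and 7 fell with quisinostat, and 4 rose and 7 fell with mivebresib. The shares of all genes were 15.2% higher and 15.8% lower with romidepsin, 28.0% and 25.1% with quisinostat, and 22.2% and 24.1% with mivebresib. TNFAIP6 (TSG-6) had 47 and 59 counts in control, 297 and 215 with romidepsin, 484 and 517 with quisinostat, and 24 and 28 with mivebresib. It rose with both HDAC inhibitors (2.20 and 3.06, edgeR adjusted p = 0.000191 and 7.37e-06) and fell with mivebresib (-1.01, edgeR adjusted p = 0.0151), the direction pattern of TNFSF15. The prostaglandin synthase gene PTGS2 rose with both HDAC inhibitors as well (1.83 and 2.13, edgeR adjusted p = 0.0326 and 0.00843). CXCL8, a neutrophil chemokine, rose with romidepsin (1.25, edgeR adjusted p = 0.000218).

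With mivebresib the 3 largest changes among the targets were falls of secreted factors. The chemokine CCL2 had 255 and 204 counts in control and 2 and 7 with mivebresib (-5.62, edgeR adjusted p = 7.04e-06), and it also fell with quisinostat (-1.41, edgeR adjusted p = 0.000491). IL6 had 136 and 85 counts in control and 7 and 6 with mivebresib (-4.05, edgeR adjusted p = 4.24e-05), whereas it rose with romidepsin and quisinostat (1.15 and 0.80, edgeR adjusted p = 0.00379 and 0.0107). CXCL10 had 27 and 25 counts in control, 10 and 7 with quisinostat, and 1 and 0 with mivebresib, a change of -1.78 with quisinostat (edgeR adjusted p = 0.00504) and -5.39 with mivebresib (edgeR adjusted p = 0.000275), the latter resting on 1 count. Of 6 sheddase genes, whose products release TNF ligands and receptors from the surface, or inhibit that release, TIMP3, an inhibitor of ADAM17, rose with romidepsin (0.81, edgeR adjusted p = 0.00336) and fell with mivebresib (-1.496, edgeR adjusted p = 7.6e-05). ADAM17 itself rose with mivebresib (0.52, edgeR adjusted p = 0.0267). In this list of 6 genes, 1 rose and 0 fell with romidepsin, 0 passed with quisinostat, and 1 rose and 1 fell with mivebresib. Over all genes 15.2% rose and 15.8% fell with romidepsin, 28.0% and 25.1% with quisinostat, and 22.2% and 24.1% with mivebresib.

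**Figure D5:**
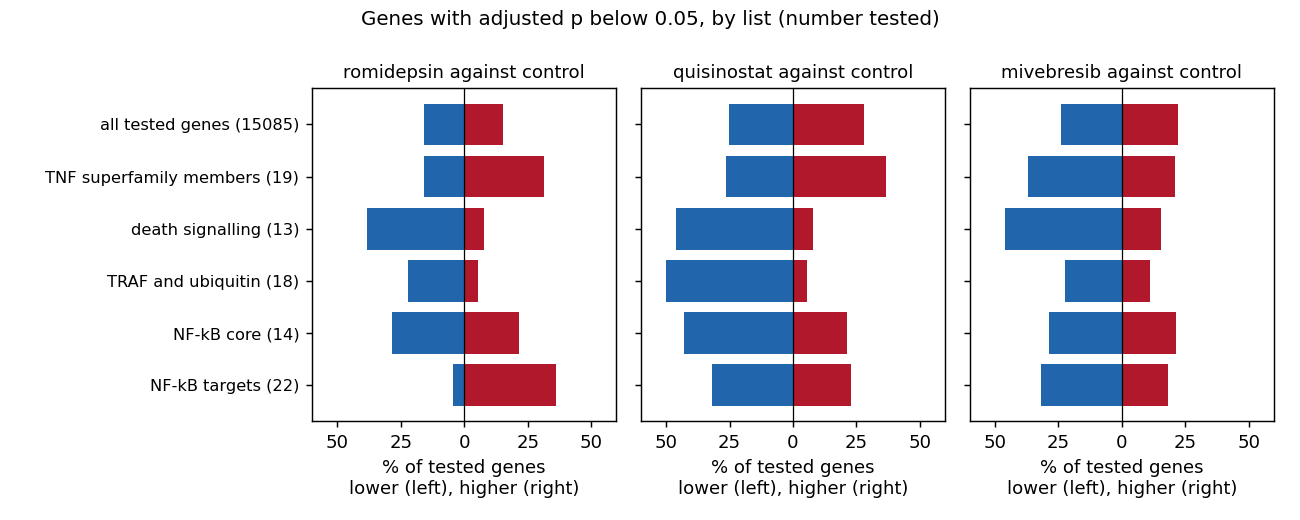
Share of tested genes with an adjusted p below 0.05 in each direction for all genes, the family and 4 signaling lists, 1 panel per drug, with the number tested in brackets. Of 13 tested death signaling genes 1 rose and 5 fell with romidepsin, 1 and 6 with quisinostat, and 2 and 6 with mivebresib. With quisinostat the log2 fold change was above 0 for 6 of the 13 and below 0 for 7. Of 22 tested NF-κB targets 8 rose and 1 fell with romidepsin. Over all genes 15.2% rose and 15.8% fell with romidepsin, 28.0% and 25.1% with quisinostat, and 22.2% and 24.1% with mivebresib.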

How the data were processed

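RNA was measured by bulk sequencing of strand-specific mRNA libraries with paired reads, and the submitters' processing notes name build hg38. The authors used BioJupies and deposited a table of counts per gene symbol without normalization. They also deposited log10 values, which equal log10(CPM + 1) of the counts to within 4.4e-16 and served only as a check, and a quantile-normalized table that was not used here. The aligner, annotation and strand setting are not given in the sources used here.

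Samples were grouped by the treatment label. Counts were fitted with edgeR 4.0.16 (R 4.3.3), with TMM scaling, a low-count filter (filterByExpr, 15085 of 35238 symbols), 1 quasi-likelihood model of all 8 libraries, 3 contrasts against control and 3 between drugs, and Benjamini-Hochberg adjustment over all tested genes within each contrast. A gene passed at an adjusted p below 0.05, and a second rule added a log2 fold change beyond 1.5. SEs are the log2 fold change divided by the root of the F statistic, intervals are 95%, and CPM use TMM factors. RPKM and gene positions come from merged exons of GENCODE 29, matched by symbol. Ambiguity was measured as the share of a gene's 31-base words found in other transcripts.

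The members, classes and lists were chosen with earlier results of these data known. All counts are printed for members past a log2 fold change of 1 with an adjusted p below 0.05 for any drug and for all death and decoy receptors, and from each signaling list the 3 largest changes per drug that passed are named, apart from a gene that is not reported here. CFLAR, XIAP, TRADD, RIPK3 and MLKL were named in addition, after their values were seen. The scripts were tested on simulated data. Alternatives were DESeq2 1.42.0, limma 3.58.1 (voom), library size or upper-quartile scaling, no filter, a mean of at least 1 CPM, a replicate block, only the 4 libraries of each contrast, the stricter thresholds, and leaving out each library.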

Additional observations from a re-analysis of the deposited data

How the results depend on the processing

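No tested member that passed turned direction in any alternative. Of 63 calls over 6 contrasts 40 passed in every alternative that refitted the counts at the same threshold and tested the member. Of the 32 calls against control 23 did. There were 16 such alternatives, and 15 for the TNFRSF25 calls, since the minimum mean of 1 CPM left TNFRSF25 out. With scaling by library size alone the median log2 fold change of all genes with quisinostat was 0.196, in place of -0.0036. Between mivebresib and quisinostat it was -0.212, in place of -0.033. The calls over all genes moved from 2293 higher and 2377 lower to 2787 and 1700 with romidepsin. They moved from 4231 and 3793 to 5625 and 2144 with quisinostat, and from 3342 and 3628 to 3499 and 3486 with mivebresib. The member counts with this scaling were 6 higher and 2 lower, 8 and 4, and 4 and 7. With 2 libraries a group, a fit that leaves one out assumes that the lone library varies like the other groups, and wells cannot show how far other cell lines would differ. The filter left 21 members untested.

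The difference between death receptors and other members moved most. For mivebresib it was -0.037 with limma-voom, -0.34 without a filter, 0.17 with a mean of at least 1 CPM and -0.0961 with only the 4 libraries of the contrast. For romidepsin it was 0.042 without a filter and -0.26 with a mean of at least 1 CPM, and for quisinostat it was -0.88 with a mean of at least 1 CPM. Leaving out 1 library gave -0.425 to 0.631 for mivebresib, -0.317 to 0.0088 for quisinostat and 0.27 to 0.41 for romidepsin. The cause of these shifts was not tested.

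Under the log2 limit of 1.5, 2 members were higher and 0 lower with romidepsin (3.77% and 0.312% of all genes). With quisinostat they were 3 and 0 (11.2% and 1.03%), and with mivebresib 0 and 3 (3.96% and 4.36%). Between quisinostat and romidepsin 0 members differed, beside 816 genes higher and 27 lower of all 15085 tested. Between mivebresib and romidepsin 6 differed (380 genes higher and 1011 lower), and between mivebresib and quisinostat 6 (261 and 1899). At an adjusted p below 0.01, 4 members differed between quisinostat and romidepsin, beside 1874 genes higher and 1132 lower of all tested. Between mivebresib and romidepsin 7 differed (2359 genes higher and 2720 lower). Leaving out 1 library gave 2 to 7 higher with romidepsin (2 without romidepsin replicate 1) and 2 to 9 that differed between quisinostat and romidepsin.

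Same-numbered libraries did not deviate together (correlation of deviations from the group means -0.162 to 0.158), so the numbers are not taken as pairs. With the replicate number as a block the death receptor difference was 0.34, -0.14 and -0.19, and the counts against control were as reported. Between quisinostat and romidepsin 6 members in place of 8 differed with the block. Of all 15085 tested genes 3065 were then higher and 2173 lower with quisinostat, in place of 3167 and 2200.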
